A study of Ornithorhynchus anatinus with 3 samples.

Results

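Chromosome 6 of the platypus is an autosome, present as a pair in both sexes, and it is described here as the monotreme counterpart of the X chromosome of therian mammals. The members are all loci that the ovary table places on chromosome 6 and that the fibroblast tables also list, which are 114 of the 20958 genes listed in all 3 tables. A further 3 loci of chromosome 6, of 140 to 156 bp, are listed for the ovary only, at an FPKM of 0, and none of the members carries the code of -1 that stands in place of a fibroblast value for 7 genes. The series compares 3 RNA-seq libraries, each from a different adult platypus caught in the wild, and each group holds 1 library. The ovary library came from a female labelled as ovulating (RNA integrity number 9.3), the female fibroblast library from another female with the same label (9.9), and the male fibroblast library from a male (8.9). No treatment or altered genotype is named for any of the animals. Fibroblasts are connective tissue cells that grow in culture, and how long they were cultured is not given in the sources used here. Since no group has replicates, no p-value is given, every difference is one between libraries, and the animal cannot be told apart from the tissue or the sex. In bulk RNA, fewer cells of a type and less RNA per cell cannot be told apart either.

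In therian mammals 1 pair of ordinary chromosomes became the X and the Y, and most genes of that pair were lost from the Y. Males then carried a single copy of the genes that remained on the X, and the question of dosage compensation is how the output of such genes was adjusted afterwards. Monotremes have other sex chromosomes, which share ancestry with the sex chromosomes of birds, so that the relatives of therian X genes sit on an autosome. Platypus chromosome 6 thus shows such genes in a species in which both sexes carry 2 copies of them. The comparisons made here ask how chromosome 6 ranks among the numbered chromosomes in the share of detected genes, in level and in the ratio of ovary to fibroblasts.

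The homology could not be checked in the tables themselves, which pair no identifier with a gene name. It was looked at in the RefSeq gene table of a later assembly (mOrnAna1.pri.v4), in which none of the 30497 entries carries an Ensembl identifier. A list of 80 genes of the therian X, meant to come from its conserved region, was looked up there. By symbol 76 were found, and 75 of these lie on chromosome 6. They include HPRT1, which salvages purines, ATRX, a chromatin remodeller, FMR1, an RNA-binding protein of neurons, and SOX3, the relative of the therian sex determining gene SRY. The gene found elsewhere, on chromosome 15, is PHKA2, a subunit of the kinase that activates glycogen breakdown. Whether each listed gene belongs to the conserved region was not checked. The place of PHKA2 thus does not show that a gene of this region has moved. The list was meant to cover the part of the X that is taken to correspond to platypus chromosome 6. A high share was therefore built into the list, and it does not show where the rest of the X lies. The same table lists 546 protein-coding genes on chromosome 6, so that the 114 members cover only some of its genes. Expression of the genes named in this paragraph was not analysed here, because no member could be matched to a symbol. For the same reason the tissue labels were not checked against marker genes.

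The members span 16.3 Mb of chromosome 6, from 0.01 Mb to 16.30 Mb on the assembly of Ensembl release 57. Their median locus length is 12.4 kb, with a range from 73 bp to 315 kb. The other 14 numbered chromosomes hold 2203 genes with a median locus length of 18972 bp. Loci under 300 bp make up 14 of the 114 members (12.3%), compared to 7.76% on the other numbered chromosomes, and 12 of the 14 are under 150 bp. Among the 10 numbered chromosomes with at least 50 listed genes, chromosome 6 had the shortest median locus and the largest share of loci under 300 bp. Of those with fewer genes, chromosome 17 had a shorter median locus and chromosome 20 a larger share.

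In the ovary library, 94 of the 114 members had an FPKM above 0 (82.5%). FPKM counts sequenced fragments, scaled by the length of the transcript and the size of the library. In male fibroblasts 86 members (75.4%) and in female fibroblasts 87 members (76.3%) had an RPKM above 0, which is the corresponding measure for reads. On the other numbered chromosomes these shares were 87.1%, 74.2% and 75.9%. In ovary only chromosome 10, at 82.1%, lay below chromosome 6 among the 15 numbered chromosomes, whereas in both fibroblast libraries chromosome 6 ranked near the middle. A value of at least 1 was reached by 81 members in ovary, 70 in male and 71 in female fibroblasts.

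The low share in ovary went along with locus length. None of the 14 members under 300 bp was above 0 in ovary, and 2 of them were above 0 in male fibroblasts and 1 in female fibroblasts. On the other numbered chromosomes, 16 of 143 loci under 150 bp (11.2%) and 9 of 28 loci from 150 to under 300 bp (32.1%) were above 0 in ovary. Among the 100 members of at least 300 bp, 94.0% were above 0 in ovary, 84.0% in male and 86.0% in female fibroblasts, compared to 93.2%, 79.5% and 80.9% for the other numbered chromosomes. With the detected shares of the other chromosomes weighted to the locus lengths of chromosome 6, 82.8% would be above 0 in ovary, 70.1% in male and 72.0% in female fibroblasts. The member share of 82.5% in ovary is thus within 1 percentage point of this weighted share, and both fibroblast shares lie above it. In female fibroblasts chromosome 6 had the highest share among the 10 chromosomes with at least 50 genes when only loci of at least 300 bp were counted, where the others lay between 73.2% and 83.9%. The smaller chromosomes 14, 15, 17 and 20 had higher shares.

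**Figure D1:**
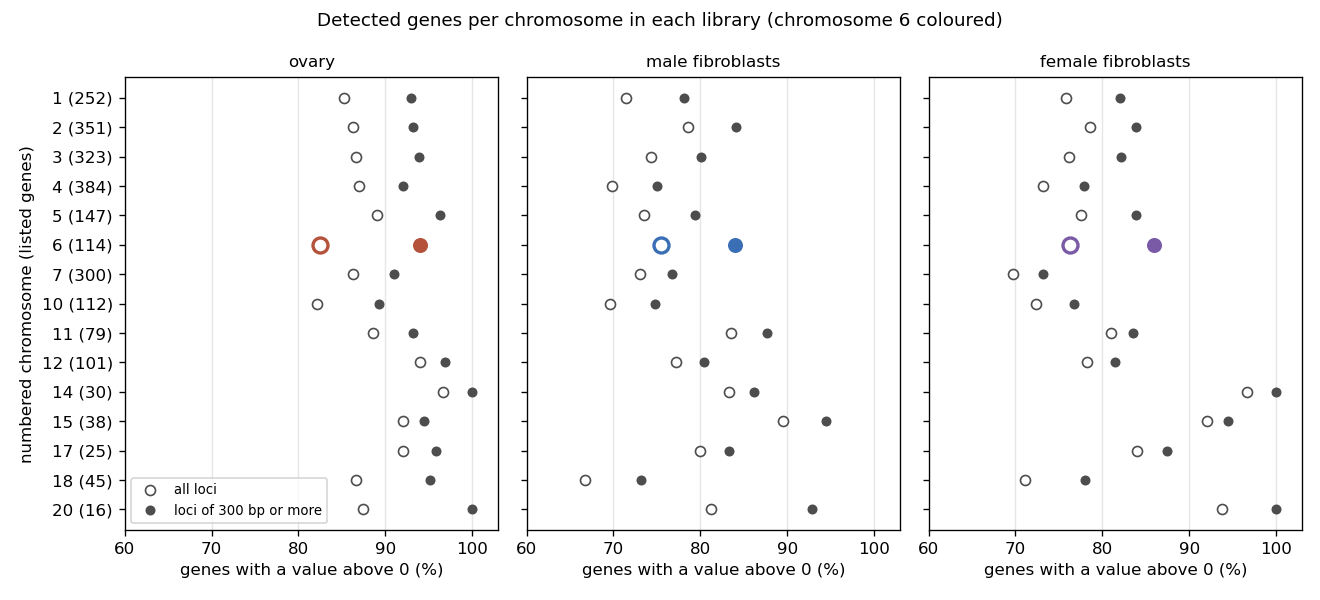
Share of genes with a value above 0 (x axis, in percent) on each numbered chromosome (y axis, with the number of listed genes), in 1 panel per library. Open points are all loci and filled points loci of at least 300 bp. Chromosome 6 is coloured, and in ovary it moves from 82.5% to 94.0% once loci under 300 bp are left out.

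Of the members, 84 (73.7%) were above 0 in all 3 libraries and 18 (15.8%) were at 0 in all 3, compared to 70.5% and 11.1% on the other numbered chromosomes. Among the 18 loci at 0 in all 3, 12 are under 300 bp and 6 are between 1.18 and 17.5 kb long. A further 8 members were above 0 in ovary alone, 2 in ovary and female fibroblasts, 1 in both fibroblast libraries and 1 in male fibroblasts alone. The last 2 belong to a cluster of 6 loci of 89 to 130 bp that lie within 883 bp at 8.56 Mb. All 6 loci of this cluster were at 0 in ovary, and their highest value was an RPKM of 0.567 in male fibroblasts. The deposited tables do not state the class of any locus.

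The precision of the ovary values differs between members. The table gives a confidence interval for each FPKM, and its lower limit was above 0 for 87 of the 94 members detected in ovary. Its half-width had a median of 12.7% of the value and ranged from 1.70% to 89.4%, with 65 of the 87 members under 20%. For the fibroblasts no interval and no read number is given. The number of reads behind each fibroblast value is unknown, and a difference between low fibroblast values can rest on few reads.

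The median FPKM of the 94 members detected in ovary was 16.4, with quartiles of 6.15 and 41.3. On the other numbered chromosomes the median was 13.5, which gives a ratio of chromosome 6 to these chromosomes of 1.22. A 95% interval of the member median, from the ranks of the member values and over the same reference, reached from 0.817 to 1.76. It treats genes as independent draws and does not cover the spread among animals. In male fibroblasts the median RPKM of 86 members was 9.16, compared to 10.9, a ratio of 0.837 (0.601 to 1.88). In female fibroblasts the median of 87 members was 15.2, compared to 12.5, a ratio of 1.22 (0.687 to 2.28). All 3 intervals include 1. They take genes as the units and hold the reference median fixed, so that they do not test the level of the chromosome.

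The other chromosomes also differed among themselves. Among the 9 other chromosomes with at least 50 genes, the ratio in ovary ran from 0.618 on chromosome 7 to 1.14 on chromosome 4, so that chromosome 6 had the highest median of the 10. In male fibroblasts it ranked 8th from the top, within a range of 0.582 to 1.36, and in female fibroblasts 2nd, within a range of 0.671 to 1.29. Among smaller chromosomes, 14 was higher than chromosome 6 in ovary (1.84) and 18 in female fibroblasts (1.73). The male ratio of chromosome 6 went above 1 with genes at 0 included (1.16) or with only genes of at least 1 kept (1.05). Its side of 1 thus depends on the filter.

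**Figure D2:**
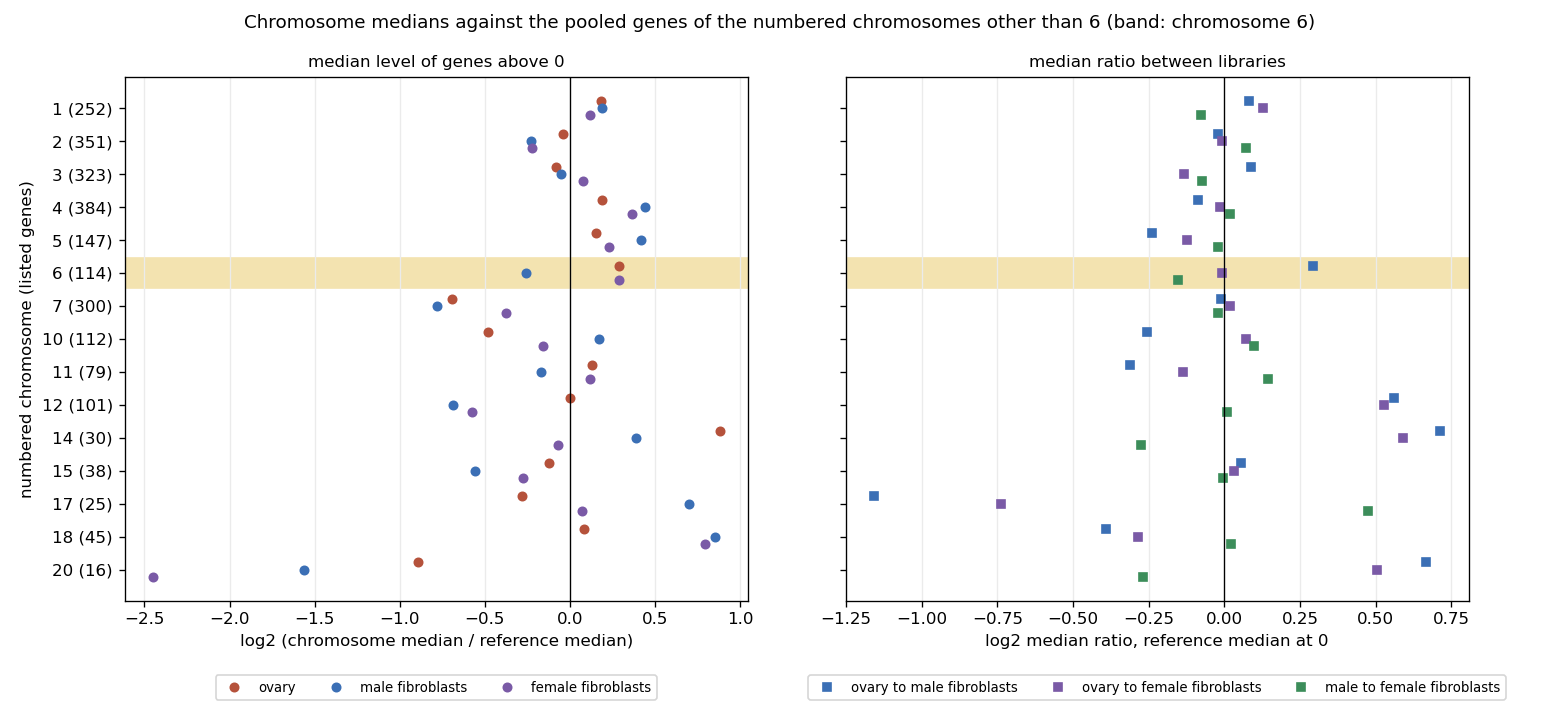
Left, median level of genes above 0 on each numbered chromosome (y axis, with the number of listed genes) over that of the pooled genes of the chromosomes other than 6, on a log2 axis, for each library. Right, median ratio between libraries on the same kind of axis. The band marks chromosome 6, whose level was 1.22 times the reference in ovary and in female fibroblasts and 0.837 times in male fibroblasts.

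A few loci carried much of the summed level. In ovary the locus at 6.02 Mb (6018273 to 6020023) had an FPKM of 3157, the 44th highest value of all 20958 genes, and the locus at 3.99 Mb (3991519 to 3994997) had 1330, the 93rd highest. Together they made up 58.6% of the summed FPKM of chromosome 6. With both included, chromosome 6 held 8.22% of the summed FPKM of the numbered chromosomes, and without them 3.57%, while its members are 4.92% of the listed genes there. In fibroblasts the locus at 3.99 Mb was the highest of the chromosome, with RPKM values of 402 in male cells and 573 in female cells, and the locus at 6.02 Mb had 184 and 202. Chromosome 6 held 3.63% of the summed RPKM in male and 4.10% in female fibroblasts. Values of at least 100 were reached by 9 members in ovary, 9 in male and 12 in female fibroblasts, which is 7.89%, 7.89% and 10.5% of the members and close to 8.58%, 7.90% and 8.49% on the other numbered chromosomes.

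Below these loci, the next members by mean level over the 3 libraries lie close together at 11.05, 11.26 and 11.39 Mb. The locus at 11.05 Mb, 132 kb long, had an FPKM of 229 in ovary and RPKM values of 213 in male and 306 in female fibroblasts. The locus at 11.26 Mb had 301, 225 and 185 in the same order, and the locus at 11.39 Mb had 84.7, 312 and 162, with an ovary status of low data and a lower limit of 0. The remaining 5 of the 10 highest lie at 1.97, 7.77, 11.22, 13.44 and 13.77 Mb, with ovary values between 76.5 and 272 FPKM. Of the 10 highest members in ovary, 7 were also among the 10 highest in each fibroblast library, and the fibroblast libraries shared 9 of their 10 highest. Across members above 0 in both libraries, Spearman's rho was 0.973 between the fibroblast libraries (85 genes), 0.746 between ovary and male fibroblasts (84 genes) and 0.767 between ovary and female fibroblasts (86 genes). On the other numbered chromosomes the values were 0.976, 0.736 and 0.739. These correlations run across genes, which are not independent replicates, and gene length and mapping are shared between libraries.

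**Figure D3:**
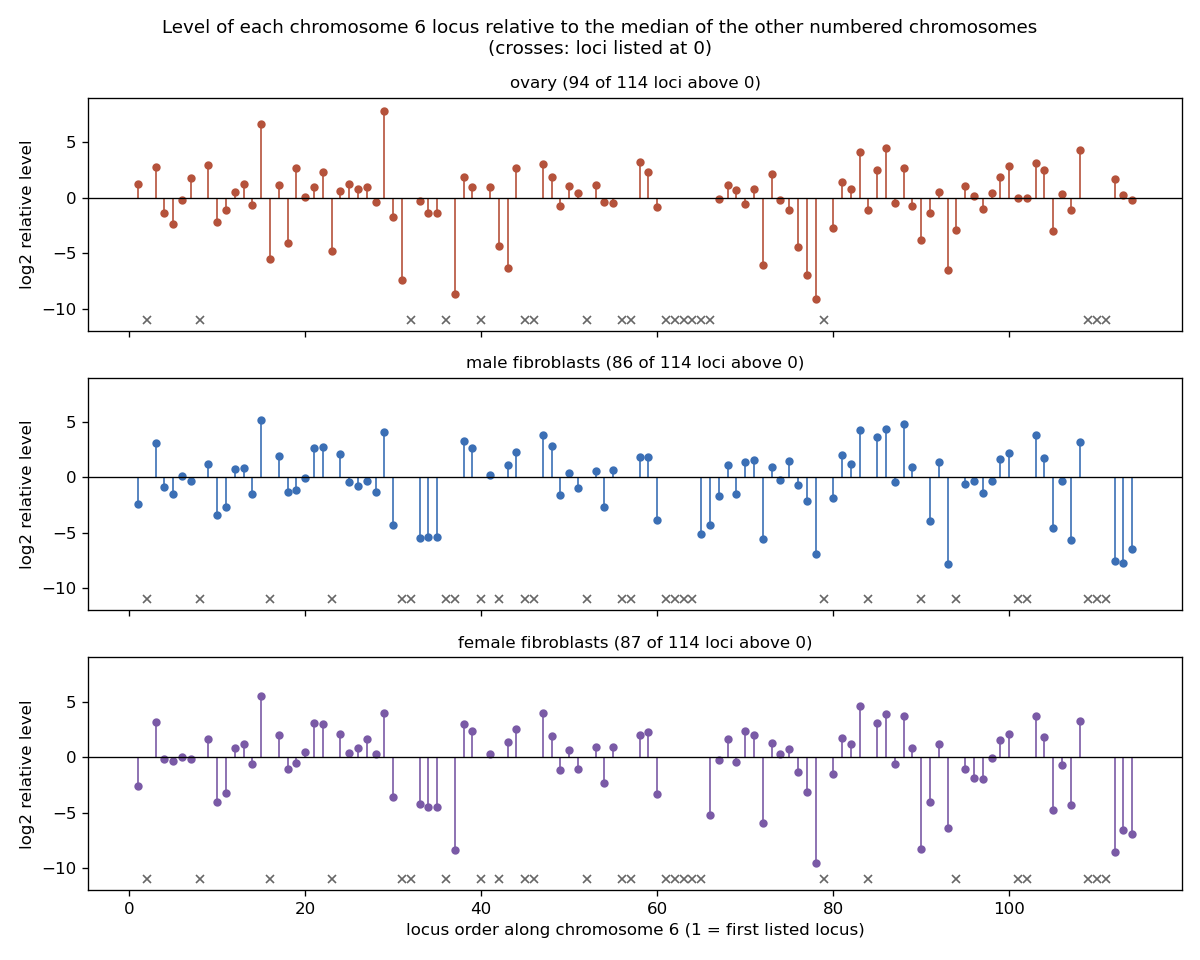
Level of each of the 114 members relative to the median of genes above 0 on the other numbered chromosomes of the same library (y axis, log2), in the order of the loci along chromosome 6 (x axis), in 1 panel per library. Crosses mark loci listed at 0, which number 20 in ovary, 28 in male and 27 in female fibroblasts. The highest ovary points are the loci at 3.99 and 6.02 Mb.

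Ovary and fibroblast values come from different programs and units, so that each ovary to fibroblast ratio was divided by the median ratio of the other numbered chromosomes, 1.42 for male and 1.18 for female fibroblasts. The median ratio of the members was 1.23 against male fibroblasts (84 genes, quartiles 0.516 and 2.52) and 0.995 against female fibroblasts (86 genes, quartiles 0.591 and 2.59). The intervals from the ranks of the members were 0.826 to 1.55 and 0.763 to 1.48. With genes again taken as independent draws, both include 1. Both comparisons use the same ovary library. Among the 10 chromosomes with at least 50 genes, the ratio of chromosome 6 to male fibroblasts was the 2nd highest, after chromosome 12 at 1.48, and its ratio to female fibroblasts the 5th highest. The smaller chromosomes 14 (1.64) and 20 (1.59) also had higher ratios to male fibroblasts.

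At least 2-fold higher in ovary than in male fibroblasts were 30 of 84 members (35.7%), where 28.1% of all listed genes above 0 in both libraries reached this limit. Against female fibroblasts it was 25 of 86 members (29.1%), compared to 29.2% of all listed genes. At least 2-fold lower in ovary were 19 members against male fibroblasts (22.6%, 33.2% of all genes) and 18 against female fibroblasts (20.9%, 26.5% of all genes). Without the division the male shares were 44.0% higher and 15.5% lower. No undivided shares of other genes were computed, so that these values have no background beside them. With the division, the lower shares on the other numbered chromosomes were 27.1% and 21.7%. The distance to all genes is thus partly one between numbered chromosomes and unplaced contigs. Against both fibroblast libraries at once, 23 of 84 members were at least 2-fold higher (27.4%, 22.5% of all genes above 0 in all 3 libraries), 15 were at least 2-fold lower (17.9%, 25% of all genes), and 31 were within 2-fold of both.

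The members with the highest ratios were the last 3 loci of the chromosome, which follow each other between 16.14 and 16.30 Mb. ENSOANG00000011968 (16138381 to 16142250) had an FPKM of 43.1 in ovary (interval 38.9 to 47.4) and RPKM values of 0.0586 in male and 0.0333 in female fibroblasts. Its ratio was 518 against male and 1099 against female fibroblasts. ENSOANG00000002388 (16214736 to 16239992) had 16.2 in ovary (14.6 to 17.8), 0.0513 in male and 0.126 in female fibroblasts, with ratios of 223 and 109. The last listed locus, at 16.26 Mb, had 11.99 in ovary, 0.122 in male and 0.1002 in female fibroblasts, with ratios of 69.2 and 101. All 3 loci were near the lower end of detection in both fibroblast libraries, so that the size of these ratios can rest on few fibroblast reads. In front of them lies a stretch from 13.86 to 16.14 Mb with only 3 listed loci, of 102 to 174 bp, all at 0.

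A second stretch with higher values in ovary lies between 6.02 and 7.03 Mb. Its ends were set where the ratios changed side, so that a shared direction follows from this choice. All 5 members of this stretch that were above 0 in the 3 libraries had ratios above 1, from 5.24 to 30.8 against male and from 3.42 to 14.0 against female fibroblasts. It holds the locus with the highest FPKM of the chromosome, at 6.02 Mb, with ratios of 12.1 and 13.3, and the 109 kb locus at 6.51 Mb, whose level in ovary was 0.817 times the median of the other chromosomes while its RPKM values were 0.251 and 0.667. It also holds a pair of loci of 303 bp, 673 bp apart at 7.03 Mb, that were listed with the same value in each library (5.05 FPKM, 0.268 and 0.564 RPKM). Loci with such equal values may share reads between near-identical copies, and their levels are uncertain. At least 10-fold higher in ovary than in both fibroblast libraries were 6 members in all, of 84 (8.09% of all genes).

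Besides these, 8 members (7.02%) were above 0 in ovary and at 0 in both fibroblast libraries, compared to 221 of 2203 genes (10.03%) on the other numbered chromosomes, and 4 of them had an FPKM of at least 1 (3.51% of the members, 4.11% of all listed genes). The highest lie next to each other, at 13.32 Mb with 13.1 FPKM (interval 12.4 to 13.9) and at 13.08 Mb with 12.9 FPKM (12.3 to 13.5). Both loci lay in ovary near the median of the other numbered chromosomes and were listed at 0 in both fibroblast libraries. The locus at 11.20 Mb, with 6.11 FPKM, is flanked on each side by a locus among the 10 highest of the chromosome. The longest member, of 315 kb at 4.91 Mb, had 0.484 FPKM in ovary and was at 0 in fibroblasts.

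The member with the lowest ratios was ENSOANG00000011673 at 7.58 Mb (7578637 to 7584297). It had an RPKM of 23.9 in male and 31.8 in female fibroblasts and an FPKM of 0.171 in ovary, with an interval from 0 to 0.412. Its ratios were 0.00503 against male and 0.00456 against female fibroblasts. The next lowest was ENSOANG00000002033 at 10.48 Mb (10479749 to 10480646), with RPKM values of 2.55 and 1.43 and an FPKM of 0.105 (0 to 0.254), which gives ratios of 0.0290 and 0.0623. Only these 2 members were at least 10-fold lower in ovary than in both fibroblast libraries (2.21% of all genes). At 0 in ovary and above 0 in a fibroblast library were 2 of the 114 members (3.36% of all listed genes), both from the cluster of short loci at 8.56 Mb.

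ENSOANG00000002033 belongs to a stretch between 10.24 and 11.24 Mb in which all 10 members above 0 in the 3 libraries had a ratio below 1 against male fibroblasts, and 9 had one below 1 against female fibroblasts. Their median ratios were 0.433 and 0.616. The locus at 11.20 Mb, above 0 in ovary alone, lies within this stretch and goes the other way. The ends of the stretch were set where the ratios changed side, so that the shared direction follows from this choice. The stretch also holds the loci at 10.42 Mb (31.5, 20.7 and 6.36 in male fibroblasts, female fibroblasts and ovary) and at 10.43 Mb (6.78, 5.02 and 0.617). The segment from 10 to 12 Mb as a whole had a median ratio of 0.535 against male and 0.640 against female fibroblasts. Against male fibroblasts it was the lowest of the 6 segments of 2 Mb on chromosome 6 with at least 10 genes with a ratio. On the other numbered chromosomes, 3 of 71 such segments had a median ratio to male fibroblasts as low as this. Against female fibroblasts the lowest segment of chromosome 6 was that from 4 to 6 Mb, with a median of 0.589, and 1 of 75 other segments was as low. The highest segments of chromosome 6 had medians of 1.71 against male and 1.83 against female fibroblasts. As high as these were 4 of 71 and 6 of 75 other segments.

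Closer to the start of the chromosome the sides alternated over shorter stretches, whose ends were set in the same way. The first listed locus, at 0.01 Mb, had 32.6 FPKM in ovary and RPKM values of 2.02 and 2.08, with ratios of 11.4 and 13.3. Of the 4 members between 1.97 and 2.98 Mb, all had ratios below 1, with medians of 0.642 against male and 0.545 against female fibroblasts. The next 4 members above 0, between 3.04 and 3.59 Mb, all had ratios above 2, with medians of 2.75 and 3.52. Between 4.64 and 5.79 Mb 4 members had ratios below 1 again, with medians of 0.464 and 0.441, while the 315 kb locus between them was above 0 in ovary alone. The locus at 4.68 Mb in this stretch had 26.1 FPKM in ovary and RPKM values of 68.1 and 105. Among the 5 members with the lowest ratios were also the loci at 4.46 Mb, with 0.801 FPKM and RPKM values of 4.51 and 6.04, and at 9.90 Mb, with 9.06 FPKM and RPKM values of 29.0 and 64.1. Among the 5 with the highest ratios was the locus at 13.58 Mb, with 6.38 FPKM and RPKM values of 0.215 and 0.640.

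**Figure D4:**
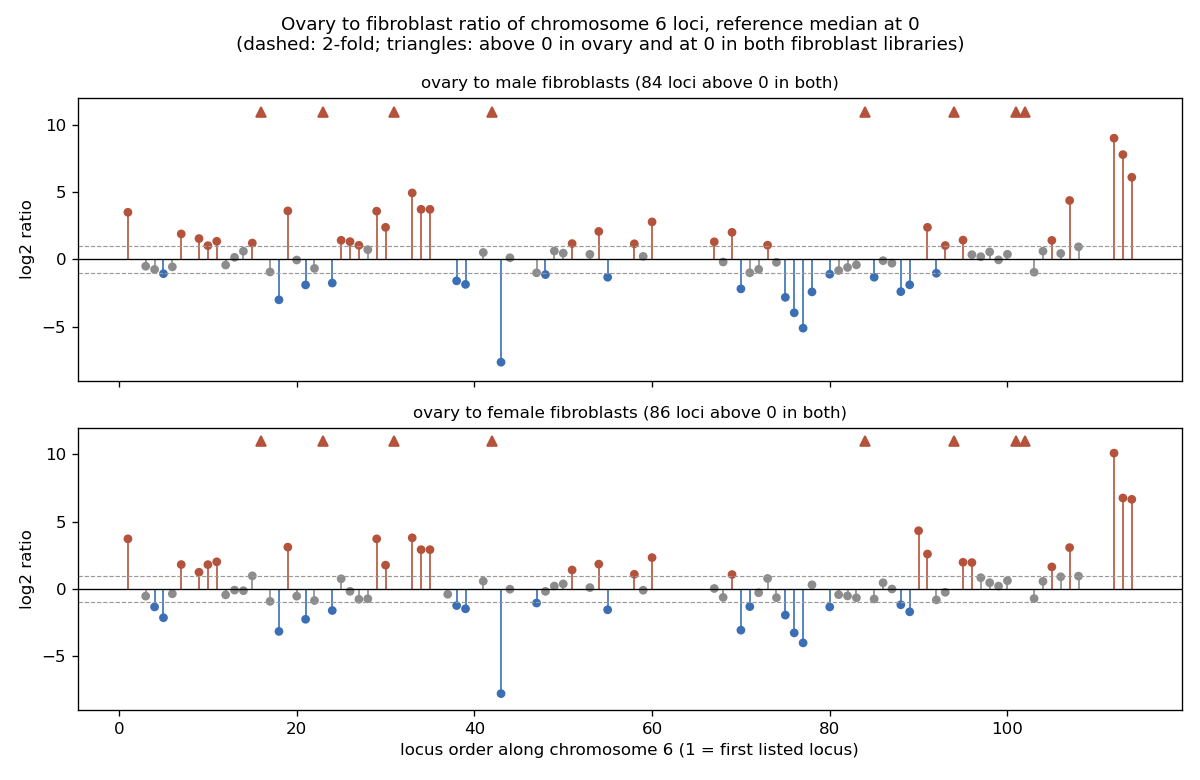
Ovary to fibroblast ratio of each member (y axis, log2, the median of the other numbered chromosomes at 0) in the order of the loci along chromosome 6 (x axis), against male fibroblasts above and female fibroblasts below. Red and blue points lie past the dashed lines at 2-fold. Triangles mark the 8 members above 0 in ovary and at 0 in both fibroblast libraries. The 3 points on the right are the loci between 16.14 and 16.30 Mb.

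Within the fibroblasts, the male to female (M∶F) ratio of a gene was divided by the median of the other numbered chromosomes in the same way. For an autosome no difference in gene copies between the sexes is present. The median M∶F ratio of 85 members was 0.900 (interval from ranks 0.804 to 1.05), with quartiles of 0.702 and 1.15, and 34 of them (40.0%) had a ratio above 1. This was the lowest median of the 10 chromosomes with at least 50 genes, where the others lay between 0.949 and 1.11. Of the smaller chromosomes, 14 and 20 had lower medians. At least 2-fold lower in the male library were 10 members (11.8%, 7.21% of all genes) and at least 2-fold higher 5 members (5.88%, 11% of all genes). These shares were 6.43% and 7.32% on the other numbered chromosomes. Without division by the median ratio of the other numbered chromosomes, 0.877, the member counts were 14 (16.5%) lower and 2 (2.35%) higher. The shares of other genes without the division were not computed, so that these 2 counts have no background beside them. With the division, the median M∶F ratio over all listed genes was 1.10, since genes on unplaced contigs had a median of 1.13.

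The M∶F ratios were not spread evenly along the chromosome. Of the 70 members that start below 10 Mb, 50 were above 0 in both fibroblast libraries, and 39 of these had a ratio below 1, with a median of 0.803. Of the 44 members beyond 10 Mb, 35 were above 0 in both, and 23 of these had a ratio above 1, with a median of 1.11. The boundary was chosen after the values had been seen. The lowest segment of 2 Mb, from 4 to 6 Mb, had a median of 0.672, and 1 of 71 segments on the other numbered chromosomes was as low. The highest, from 10 to 12 Mb, had a median of 1.12, and 19 of the 71 were as high.

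The lowest ratios among members of at least 1 RPKM belonged to neighbours, 3 loci between 5.90 and 5.97 Mb. The locus at 5.91 Mb had RPKM values of 8.92 in male and 37.9 in female fibroblasts (ratio 0.269), the locus at 5.90 Mb had 6.57 and 22.4 (0.335), and the locus at 5.93 Mb had 4.47 and 14.8 (0.345). In ovary they had FPKM values of 26.3, 23.4 and 10.5, and relative to the other chromosomes each ovary value lay between the male and the female one. At the other end, the locus at 12.20 Mb had 8.51 in male and 3.37 in female fibroblasts (ratio 2.88), and the locus at 11.39 Mb had 312 and 162 (2.20). The 7 members of at least 100 kb that were above 0 in both libraries all had ratios below 1, from 0.389 to 0.793. The lowest of these, at 11.81 Mb, had RPKM values of only 0.0501 and 0.147. The locus at 6.51 Mb (ratio 0.429) had 0.251 and 0.667, while the rest were above 1 RPKM in both libraries. On the other numbered chromosomes the 140 such genes of this length had a median ratio of 0.876. Their share with a ratio below 1 was not computed, so that the count of members has no background beside it.

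**Figure D5:**
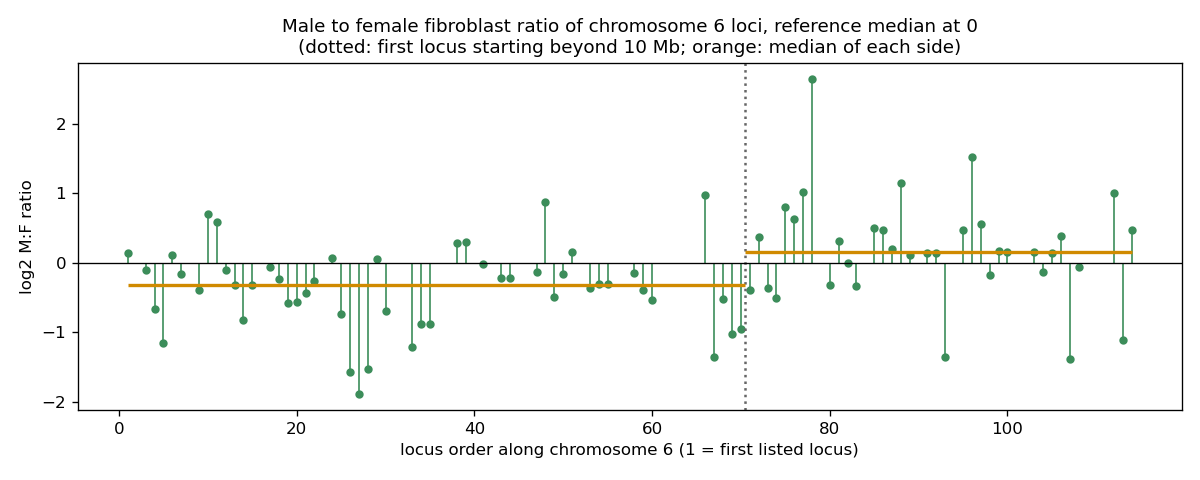
M∶F ratio of each of the 85 members above 0 in both fibroblast libraries (y axis, log2, the median of the other numbered chromosomes at 0) in the order of the loci along chromosome 6 (x axis). The dotted line marks the first locus beyond 10 Mb and the orange lines the medians on either side of it, 0.803 and 1.11 as ratios.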

How the data were processed

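For the fibroblasts the authors deposited RPKM values (reads scaled by transcript length and library size) on gene models refined from Ensembl release 57, with -1 in place of a value for 7 genes, and for the ovary FPKM values with lower and upper limits and a status per locus. The submitters' processing notes name Bowtie, TopHat 1.0.13 and Cufflinks 1.0.3. No read counts are given.

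Chromosome 6 loci were taken from the ovary table after 4 repeated identifiers had been dropped, and joined to the fibroblast tables by identifier. Start positions were raised by 1, since end minus start was a multiple of 3 for 54.8% of 2949 loci of 300 to 1500 bp, compared to 22.6% with 1 added. Levels are medians of genes above 0, and ratios cover genes above 0 in both libraries. The reference was the 14 other numbered chromosomes. Loci named in the text were the 10 highest by mean relative level, the 5 with the highest and lowest ovary to fibroblast ratios, the 3 highest seen in a single tissue and the 2 with the highest and lowest M∶F ratios. Without gene names only 4 are given by identifier. The neighbouring stretches, the equal pair, the 6-locus cluster and the longest locus were added after their values had been seen. So were the loci at 0.01, 4.68, 5.93, 10.42 and 11.81 Mb. The members and lists were chosen with earlier results of these data known. Calculations used scipy 1.17.1, pandas 2.3.3 and numpy 2.4.6 in Python 3.11.15, figures matplotlib 3.10.9, and the ratio step was tested on simulated data.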

Additional observations from a re-analysis of the deposited data

How the results depend on the processing

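No paired analysis was possible because there is a single sample of every kind, which also leaves no replicate to omit. A value is called moved when it left the 95% interval of the reported one (Wilson for shares, ranks for medians). These intervals treat genes as independent draws and do not cover the spread among animals. Of 60 alternative values, 52 stayed within it and 8 moved. With a minimum of 1 the detected shares fell to 71.1% in ovary, 61.4% in male and 62.3% in female fibroblasts, and with loci of at least 300 bp they rose to 94.0%, 84.0% and 86.0%. Without division by the reference, the median ovary to male fibroblast ratio was 1.74 and the median M∶F ratio 0.789, since this multiplies every gene by the same factor. The level ratios lay between 1.17 and 1.59 in ovary, 0.868 and 1.16 in male and 1.16 and 1.50 in female fibroblasts. The median ratio to female fibroblasts lay between 0.990 and 1.17. The missing read numbers limit what low fibroblast values can show.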
